A study of Drosophila melanogaster with 2 samples.

Results

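The 7 condensin subunit genes of Drosophila melanogaster, Cap-H2, Cap-D3, Cap-D2, Cap-G, barr, glu and SMC2, were followed through every deposited peak list of a chromatin immunoprecipitation of the zinc finger protein CG9215. They are 7 of the 13968 protein-coding genes, and of 18277 genes in all, on the assembled chromosomes. The genes were picked by symbol as a family, and Cap-H2 was chosen on its top-ranked promoter peak, so its signal and rank are given as a description and no test is attached to them. All 7 symbols were found in the annotation. The embryos were aged 0 to 24 h and came from a transgenic strain that expresses CG9215 fused to enhanced green fluorescent protein (eGFP), and the tagged protein was precipitated with an antibody against the tag. There is 1 group, of 2 biological replicates per the labels, with no other genotype, treatment or age. Both libraries therefore carry the fusion protein, and whole embryos mix all tissues. For these libraries 8 lists of peaks on dm6 were used, 4 of them thresholded and 4 ranked. Each peak carries a signal, which is the authors' own value and is compared here only within a list. Coordinates are on dm6 and count from 1.

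Condensins are ring-shaped complexes that compact and separate chromosomes in mitosis. A pair of ATPases, SMC2 and SMC4, forms the ring, and the fly SMC4 is encoded by glu. A kleisin closes the ring and HEAT-repeat proteins bind to it. In condensin I the kleisin is barr (Cap-H) and the HEAT-repeat proteins are Cap-D2 and Cap-G, whereas in condensin II the kleisin is Cap-H2 and a HEAT-repeat protein is Cap-D3. In flies, Cap-H2 is known for unpairing homologous chromosomes and for dispersing polytene chromosomes, and its amount is limited by the ubiquitin ligase component slmb.

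The tagged protein had a peak at the start of 4 condensin genes, and the strongest by far was at Cap-H2. A promoter peak is a peak whose summit lies within 500 bp of an annotated start site. In the conservative list, the smaller of the 2 thresholded lists of the series, Cap-H2, SMC2, barr and Cap-D2 had one. Cap-D3 had conservative peaks inside the gene and upstream of it, each beside the start of another gene, and Cap-G and glu had none. The background share of protein-coding genes with a conservative promoter peak was 17.3%, or 2419 genes. Of the 7 condensin genes, 6 have a neighbour on the other strand that starts within 1000 bp upstream. Among all protein-coding genes with such a neighbour the share was 32.1%. Since Cap-H2 was chosen on its promoter peak, the count of 4 of 7 is a description.

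The bases under the summits are shown for the peaks at Cap-H2, Cap-D2 and Cap-D3, which differ in CGATA, a motif found at the strongest peak. The windows of barr and SMC2 are not shown. That of barr, with a signal of 161, held CGATA, and that of SMC2, with 515, did not, so CGATA did not follow the order of signal. Each printed sequence reaches 50 bp to either side of the conservative summit and is shortened where an untranslated region begins. Capitals mark matches to CGATA on either strand.
Cap-H2 and MED7 starts, chr3R:10761168-10761268, plus strand: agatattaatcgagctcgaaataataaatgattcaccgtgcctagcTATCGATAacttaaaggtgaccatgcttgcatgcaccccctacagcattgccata
Cap-D2 and Bub3 starts, chr3R:29675486-29675586, plus strand: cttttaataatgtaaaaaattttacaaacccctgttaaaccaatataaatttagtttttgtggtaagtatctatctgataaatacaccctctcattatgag
Coq6 start inside Cap-D3, chr2L:5532224-5532299, plus strand: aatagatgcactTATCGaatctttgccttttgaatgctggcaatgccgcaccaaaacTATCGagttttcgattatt
Elp4 and Vps52 starts before Cap-D3, chr2L:5524043-5524138, plus strand: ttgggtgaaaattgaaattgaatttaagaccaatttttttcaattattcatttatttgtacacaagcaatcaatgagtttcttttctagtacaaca
The windows of Cap-H2 and Cap-D2 are whole, and 76 bases are left at Coq6 and 96 at Elp4. The capitals in the Cap-H2 sequence spell TATCGATA, the palindrome known as the DRE, which the factor DREF binds, and it contains CGATA, the core bound by BEAF-32, on both strands. Its centre lay 0.5 bp before the Cap-H2 summit. The Coq6 sequence holds CGATA at 2 places on the minus strand but no DRE, and the other sequences hold neither. All sequences were read from the RefSeq copy of assembly Release 6.

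Cap-H2 (FBgn0037831, chromosome arm 3R, 10761310 to 10766756, plus strand), the condensin II kleisin, had its conservative peak at 10760911 to 10761456, with the summit at 10761218. The signal was 2901 and the rank was 9 of 3718 conservative peaks. The larger thresholded list of the series held the same interval, summit and signal, as rank 9 of 4098, so it is not a separate measurement. Replicate 1 gave a signal of 1281 and rank 19 of 3442 thresholded peaks, and replicate 2 gave 1616 and rank 3 of 2624. Cap-H2 was thus near the top in each library, and higher in the list of replicate 2. The peak was 546 bp wide, and 99.7% of conservative peaks were narrower. The most common width in that list was 416 bp, shared by 70.1% of its peaks.

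The Cap-H2 summit lay between head-to-head genes. It was 92 bp upstream of the first Cap-H2 start and 186 bp upstream of the start of MED7, a subunit of the Mediator complex, and the 2 starts are 278 bp apart. The summit also fell in an exon of the antisense transcript asRNA:CR45016, so the peak cannot be given to 1 of the genes. Replicate summits lay 100 bp from the Cap-H2 start in replicate 1 and 117 bp in replicate 2. A second peak at 10762402, in an exon of Cap-H2, appeared in the ranked lists alone, with a signal of 47.2 and a −log10 irreproducible discovery rate of 0.485 in the ranked list that holds all conservative peaks. A score is the authors' whole number of at most 1000 made from this rate, a measure of how often peaks fail to recur, and every thresholded peak had at least 830. The ranked list of replicate 2 held 7 peaks in the Cap-H2 window. Of the 6 that did not pass, the strongest lay at 10768598 in a neighbouring gene downstream, with a signal of 28.8 and a score of 49.

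In the conservative list the genes closest to Cap-H2 by the signal of their strongest promoter peak were CG34033 and CG1648, which share a peak of 3000, and CG9630 at 2923 above it, and mRpL41 at 2897 and the pair kri and S6k, which share a peak of 2703, below it. In all, 7 promoter peaks of protein-coding genes ranked above that of Cap-H2. The order among these neighbours was not kept between libraries. In replicate 1, Cap-H2 had 1281, against 1577 at CG34033 and CG1648, 1531 at CG9630, 1472 at mRpL41 and 1491 at kri and S6k. In replicate 2, Cap-H2 had 1616, against 1452 at CG34033 and CG1648, 1408 at CG9630, 1436 at mRpL41 and 1205 at kri and S6k. Cap-H2 was thus below all 4 of these peaks in replicate 1 and above all 4 in replicate 2.

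**Figure D1:**
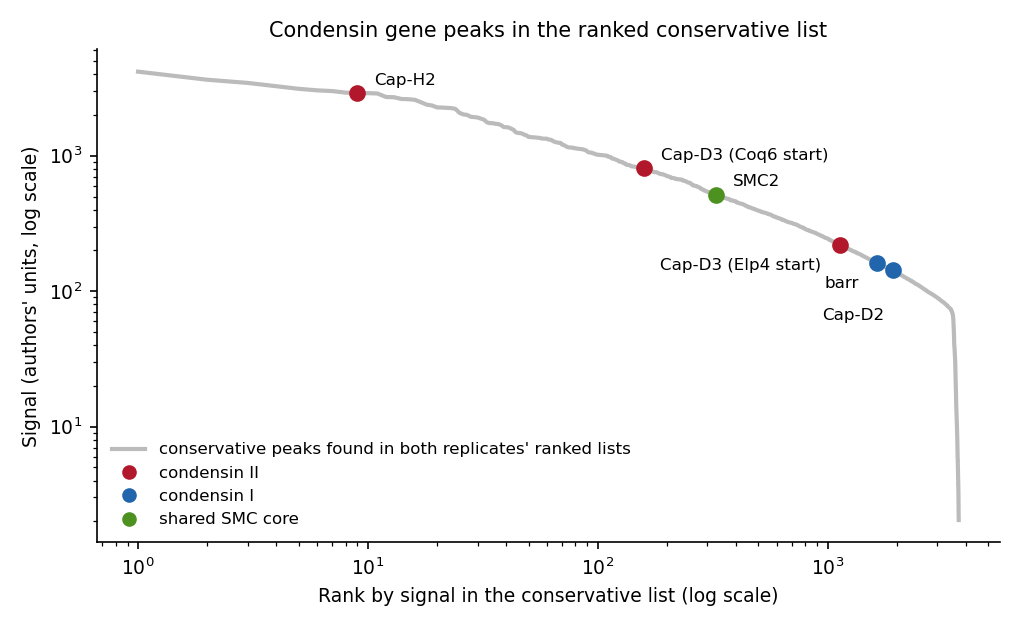
Signal (authors' units, log scale) against rank (log scale) for conservative peaks with a ranked peak in each replicate (grey line), with the 6 conservative peaks at condensin genes as points coloured by complex. Cap-H2 stands at rank 9, the Coq6 start inside Cap-D3 at 159, SMC2 at 328, and the Elp4 start before Cap-D3, barr and Cap-D2 between ranks 1135 and 1922.

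Cap-D3 (FBgn0051989, arm 2L, 5525905 to 5535958, plus strand), the HEAT-repeat protein of condensin II, had no thresholded peak within 500 bp of its own start in any list. The stronger conservative peak in its window, at 5532086 to 5532398, had its summit at 5532249 in a Cap-D3 intron, 6344 bp downstream of the Cap-D3 start. That summit was 26 bp upstream of the start of Coq6, a gene for a ubiquinone biosynthesis enzyme that lies within Cap-D3 on the opposite strand. Its signal was 806, rank 159, with 362 (rank 212) in the thresholded list of replicate 1 and 442 (rank 115) in that of replicate 2.

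The other conservative peak in the Cap-D3 window, at 5523885 to 5524300, lay 1812 bp upstream of Cap-D3, with its summit at 5524093. It was 46 bp from the start of Elp4, an Elongator subunit, and 195 bp from that of Vps52, a subunit of the GARP tethering complex. The signal was 219, rank 1135, with 87.4 (rank 1675) in replicate 1 and 142 (rank 768) in replicate 2. A weaker summit about the Elp4 start passed in the larger thresholded list of the series, at 5524293 with 19.7, and in replicate 2, at 5524292 with 5.16. Within 500 bp of the Cap-D3 start itself, the ranked list that holds all conservative peaks had summits 393 bp upstream, with a signal of 29.2, and 342 bp downstream, with 44.2. The score of the stronger of these was 91, far under the 830 of the thresholded peaks. The Cap-D3 window thus held 19 ranked peaks in that list, of which 2 were conservative and neither was at the Cap-D3 start.

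SMC2 (FBgn0027783, arm 2R, 14848621 to 14852653, minus strand), an ATPase of the ring in both condensins, had the second strongest promoter peak of the family. It spanned 14852661 to 14852960 with the summit at 14852775 and a signal of 515, rank 328. Replicate 1 gave 302 (rank 288) and replicate 2 gave 218 (rank 386). The summit was 122 bp upstream of SMC2 and 166 bp upstream of Ercc1, which encodes a subunit of a nucleotide excision repair endonuclease and is transcribed the other way, with 288 bp between the starts. The SMC2 peak was 300 bp wide, and 79.6% of conservative peaks were wider. A peak at 14847267, 5386 bp downstream of the SMC2 start in the neighbouring gene CG10209, had a signal of 67.7 and a score of 809, the closest to 830 without reaching it of any peak in the 7 windows of the ranked list that holds all conservative peaks.

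barr (FBgn0014127, arm 2L, 20058163 to 20061370, minus strand), the condensin I kleisin, had a conservative peak at 20061012 to 20061427 with the summit at 20061220 and a signal of 161, rank 1643. Unlike the summits at Cap-H2, SMC2 and Cap-D2, this one lay downstream of the gene's first start, by 150 bp, in an exon that is 5′ untranslated in the annotation. The start of lok, the fly Chk2 kinase gene, faces away from barr at a distance of 52 bp and was 202 bp from the summit. Replicate 1 had separate peaks, with 91.4 (rank 1583) at 20061222 and 54.7 (rank 2756) at 20061431, the weaker one 9 bp from the lok start. Replicate 2 had a single thresholded peak with 76.7 (rank 1690) at 20061152, in a barr intron and 175 bp from the second barr start. Its ranked list added a summit at 20061358 with 26.5. The ranked list that holds all conservative peaks had a further summit at 20061421, 1 bp from the lok start, with 77.2 and a score of 387. The summits of the replicates were 70 bp apart at barr, against 9 to 52 bp at the other conservative peaks of the family and a median of 26 bp over the 3674 conservative peaks with a ranked peak in each replicate.

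Cap-D2 (FBgn0039680, arm 3R, 29675651 to 29680257, plus strand), a HEAT-repeat protein of condensin I, had a conservative peak at 29675328 to 29675743. Its summit at 29675536 lay 115 bp from the start of Cap-D2 and 115 bp from that of Bub3, a spindle checkpoint gene transcribed the other way, so it stood midway between starts 230 bp apart. The signal was 143, rank 1922, close to the median of 146 over all conservative peaks. Replicate 1 gave 65.9 (rank 2313) and replicate 2 gave 82.2 (rank 1549). barr was above Cap-D2 in the conservative list and in replicate 1 and below it in replicate 2, so the order of these 2 genes was not kept between libraries.

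**Figure D2:**
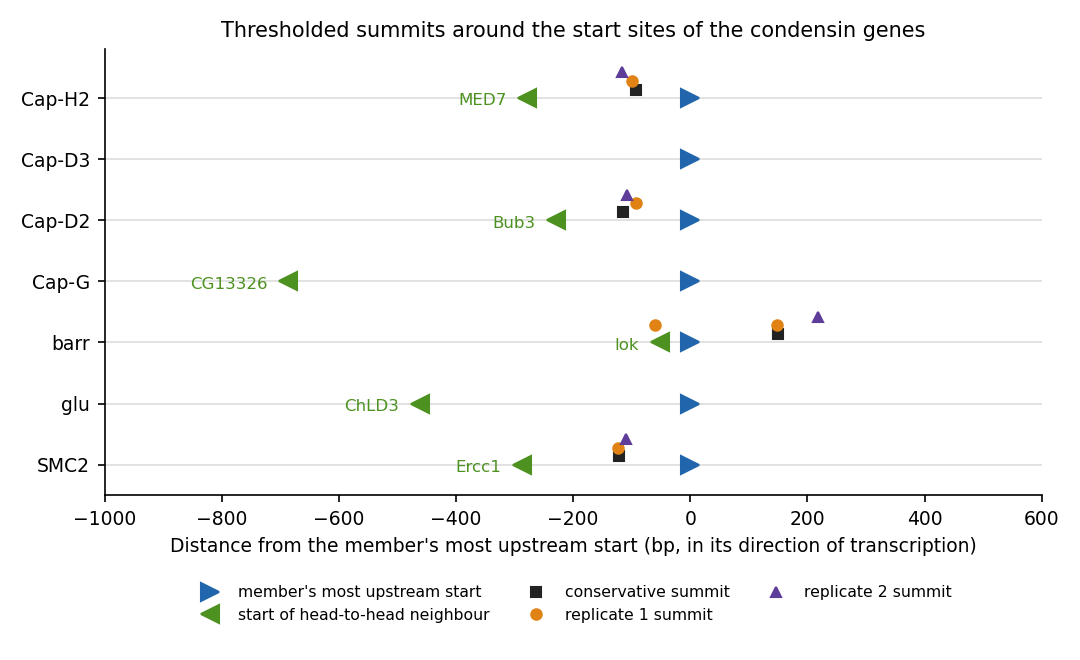
Thresholded summits by distance (bp) from each gene's most upstream start in its direction of transcription, for the conservative list and each replicate, with the start of the head-to-head neighbour where it lies within 1000 bp. The summits at Cap-H2, Cap-D2 and SMC2 fall between the paired starts, those at barr fall on either side of its start, and Cap-D3, Cap-G and glu have none in the range plotted.

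Cap-G (FBgn0259876, arm 2R, 13133142 to 13142820, plus strand), the other HEAT-repeat protein of condensin I, had no thresholded peak in any of the 4 thresholded lists. Its window held 12 ranked peaks in the ranked list that holds all conservative peaks, with signals of 2.70 to 59.2 and a median of 19.4. The strongest lay at 13143581 in the coding sequence of Ack-like, a neighbour downstream, with a score of 53. The strongest reached 39.2 in the ranked list of replicate 1 and 21.3 in that of replicate 2. No ranked peak of any list had its summit within 500 bp of the Cap-G start.

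glu (FBgn0015391, arm 2L, 16733617 to 16738388, minus strand), the SMC4 ATPase gene, likewise had no thresholded peak. It had 3 ranked peaks, at 23.4, 26.4 and 31.5, in the ranked list that holds all conservative peaks, and all 3 lay in its coding sequence. The other ranked list of the series added a summit at 16739310 with 38.5, in an intron of ChLD3. The strongest signal was 18.1 in replicate 1 and 22.0 in replicate 2. Only the ranked list of replicate 1 had summits within 500 bp of the glu start, the stronger at 12.1 with a score of 15. A missing thresholded peak says that no peak passed at this depth, which is unknown, and not that the protein was absent.

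**Figure D3:**
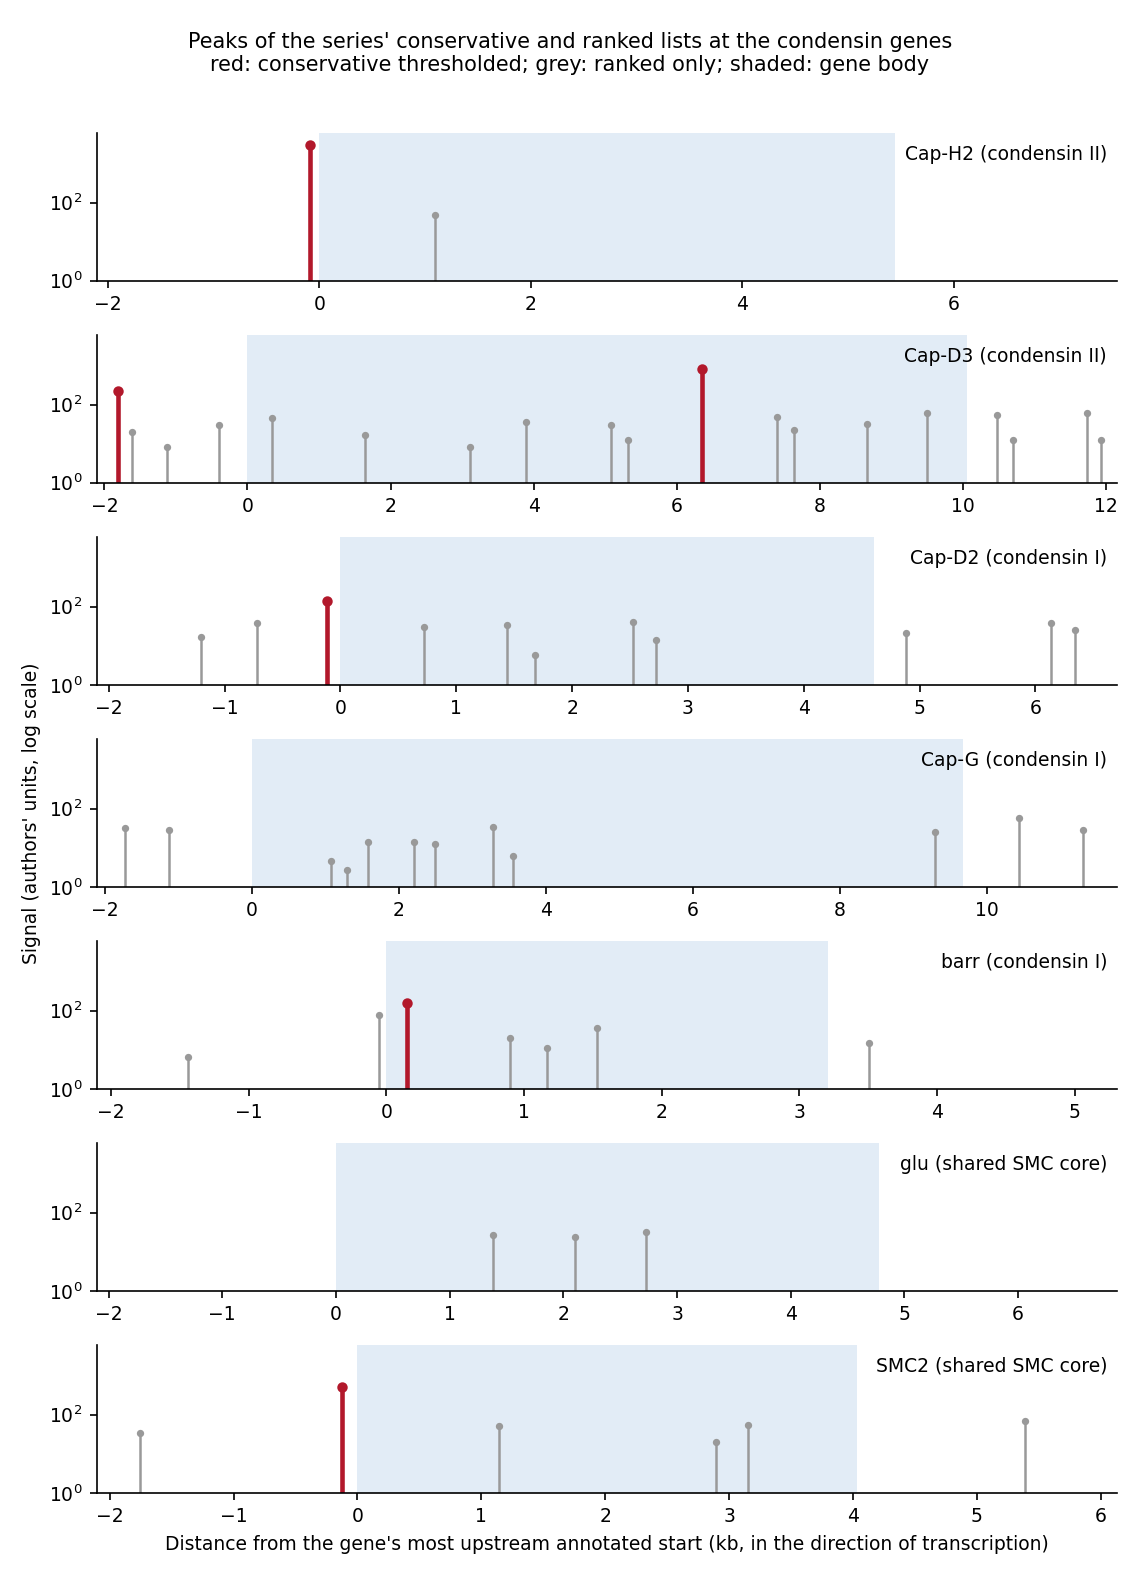
Signal (authors' units, log scale) of ranked peaks against distance (kb) from each gene's most upstream start, in the direction of transcription. Peaks are from the ranked list that holds all conservative peaks, with the gene body shaded and conservative peaks in red. Cap-H2, Cap-D2, barr and SMC2 each have 1 conservative peak at the start, Cap-D3 has 2 away from its start, and Cap-G and glu have grey peaks of at most 59.2 only.

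By the strongest thresholded peak in the gene and 2 kb on either side, the conservative list ordered the family as Cap-H2, Cap-D3, SMC2, barr and Cap-D2. Replicate 1 gave the same order, and replicate 2 gave it with Cap-D2 before barr. Below these, Cap-G was above glu in replicate 1 and below it in replicate 2, both with ranked peaks alone. All 5 genes with a conservative peak in the window also had a thresholded peak there in each replicate and in the larger thresholded list of the series. Over all protein-coding genes, 30.6% had a conservative peak in the gene or 2 kb on either side. The windows of the condensin genes had a median length of 8772 bp, against 6165 bp for all protein-coding genes, so a longer window was searched. In the ranked list that holds all conservative peaks, a peak in the window was found for all 7 condensin genes, against 84.5% of protein-coding genes, and a peak within 500 bp of a start site for 5 of 7, against 65.0%. The ranked list of replicate 1 had a peak that near a start for 6 of 7, with glu added.

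**Figure D4:**
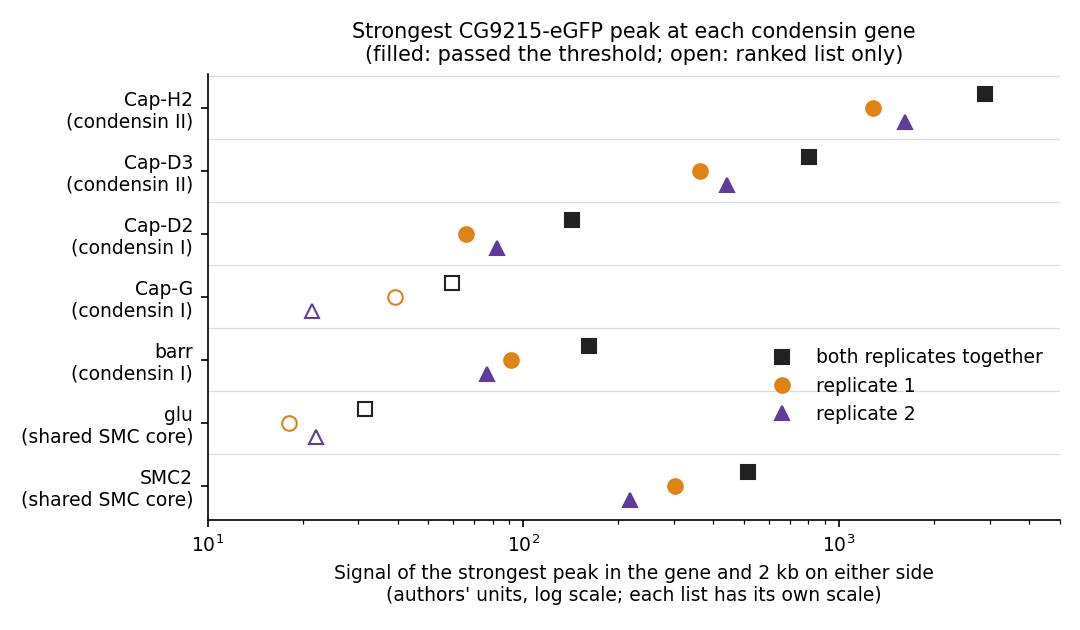
Signal of the strongest peak in each condensin gene and 2 kb on either side (authors' units, log scale), from the lists of both replicates together, replicate 1 and replicate 2, with filled symbols for thresholded peaks and open symbols for peaks of the ranked lists only. Cap-H2 is highest in all 3 sets, and Cap-G and glu are open in all 3.

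The lists of single libraries gave the same 4 genes with a promoter peak. Cap-H2, SMC2, barr and Cap-D2 each had one in the larger thresholded list of the series, where the background share of protein-coding genes was 18.1%, in that of replicate 1, at 16.1%, and in that of replicate 2, at 14.5%. In all, 27 thresholded and 257 ranked entries fell in the 7 windows over the 8 lists, and the same site can recur in several lists.

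All 6 conservative peaks in the windows were overlapped by at least 1 bp by a thresholded peak of each replicate, against 59.0% of all 3718 conservative peaks. All 7 thresholded peaks of replicate 1 in the windows overlapped one of replicate 2, against 63.3% of its whole list, and all 7 of replicate 2 overlapped one of replicate 1, against 85.1%. The 7 are not 7 separate sites in either replicate. Neighbouring peaks at barr in replicate 1, and at the Elp4 start in replicate 2, overlapped the same peak of the other replicate. Peaks of high signal made part of this set through the choice of Cap-H2, so the counts are a description.

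**Figure D5:**
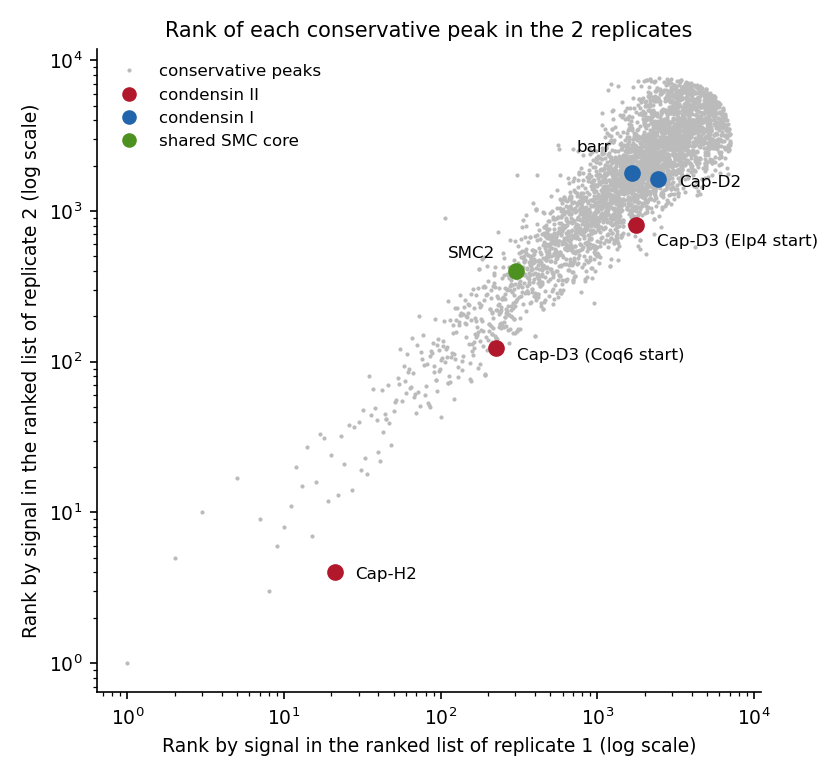
Rank by signal in the ranked list of replicate 2 against that of replicate 1 (log scales) for conservative peaks with a ranked peak in each replicate, with the condensin gene peaks coloured by complex. Cap-H2 stands at rank 21 in replicate 1 and rank 4 in replicate 2, and the condensin gene peaks lie within or at the edge of the grey cloud.

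Of the 7 condensin genes, 6 have a head-to-head neighbour, meaning a protein-coding gene on the other strand whose start lies within 1000 bp upstream, and Cap-D3 is the exception. Of all protein-coding genes, 33.3% have one. The 4 genes with a conservative promoter peak were all among these 6, with gaps of 52 bp at barr, 230 bp at Cap-D2, 278 bp at Cap-H2 and 288 bp at SMC2. The 2 genes with a head-to-head neighbour but no peak had wider gaps, 462 bp between glu and ChLD3 and 687 bp between Cap-G and CG13326. The median gap over all head-to-head genes was 302 bp, and whether peaks go with gap width was not tested. Across the genome, 1490 of 4648 head-to-head genes had a conservative promoter peak, which is 32.1%. The conservative peak before Cap-D3 also lay between head-to-head starts, those of Elp4 and Vps52.

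A set of 13 short motifs was looked up in windows reaching 50 bp to either side of the 6 summits, on both strands. CGATA was found at 3 of the 6, those of Cap-H2, barr and the Coq6 start inside Cap-D3, and in 15.6% of all 3681 conservative windows on assembled chromosomes, against 9.98% of 113911 windows of ranked peaks that overlap no thresholded peak. TATCGATA, which contains CGATA, was found at Cap-H2 alone of the 6, and in 1.71% of conservative windows, against 0.205% of the unselected windows. TATAAA was found at Cap-D2, in 21.2% of conservative windows and in 6.13% of the unselected ones. GAGAG was also found at Cap-D2, in 9.75% and 12.6% of these sets, and CATCNCTA at the Coq6 start, in 1.74% and 0.587%. The other 8 motifs matched none of the 6 windows, namely the E-box CACGTG, the M1BP motif GGTCACAC, the Zeste motif TGAGTG, the Ohler motif GGTATTT, the Zelda motif CAGGTAG, the CTCF core AGGNGGC, the Su(Hw) core TGCATAC and the initiator TCAGT. With 100 bp to either side, TATCGATA also appeared at Cap-D2, its centre 95.5 bp before the summit towards Bub3, and was in 3.72% of conservative windows, against 0.379% of unselected ones. The conservative windows of 50 bp to either side also held more A and T than the unselected ones, with medians of 67.3% and 51.5%. The motif shares were not adjusted for this. A match describes the letters and not a bound site.

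The 6 windows fell on either side of the typical base composition. The share of A and T was 58.4% at Cap-H2 and at the Coq6 start, 59.4% at barr, 74.3% at Cap-D2 and the Elp4 start, and 78.2% at SMC2. The median was 67.3% over all conservative windows and 51.5% over the unselected ones. Cap-H2 thus combined a top rank with fewer A and T bases than most conservative windows, as 24.5% of those had less.

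Genes that act with or beside condensin were read from a list of 32, all found in the annotation, 2 of them through an older symbol. A conservative promoter peak was present at 7 of them, or 21.9%, which is near the 17.3% of all protein-coding genes. Among 8 regulators and partners of condensin, 2 had one, or 25%. They were Top2, the topoisomerase that untangles sister chromatids, with a signal of 124, and Cdk1, the mitotic kinase, with 75.6. The genes slmb, CkIalpha, MRG15, Rbf, polo and aurB had none in the conservative list, although slmb had a thresholded promoter peak in replicate 1, at 62.6. Cdk1 had no promoter peak in any other thresholded list. Top2 had one in the larger thresholded list of the series and in that of replicate 1, but not in that of replicate 2.

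Among 17 cohesin genes, 3 had a conservative promoter peak, or 17.6%, against 17.3% of all protein-coding genes. The strongest was pds5, a regulator bound to the cohesin ring, at 1076 and rank 90, followed by SA1, a HEAT-repeat subunit, at 417, and Mau2, part of the cohesin loader, at 246. The ring genes SMC1, SMC3 and vtd had none. Of 7 genes of the SMC5/6 complex, which acts in DNA repair, 2 had a conservative promoter peak, or 28.6%, against the same 17.3%. SMC6 had one of 683 and cerv, a SUMO ligase subunit, one of 108. SMC5, the partner of SMC6, had a thresholded promoter peak in replicate 2 alone, at 101.3. The summit at pds5 was 178 bp from its start and 100 bp from that of Mppe, that at SA1 was 118 bp from its start and 96 bp from that of Gas41, and that at SMC6 was 177 bp from its start and 232 bp from that of CG6204. The Cdk1 summit was 260 bp from its start and 140 bp from that of mRpS7, and the cerv summit was 281 bp from its start and 247 bp from that of CG7872. At pds5, SA1, Cdk1 and cerv the start of another gene was thus nearer. At SMC6, Mau2 and Top2 the gene's own start was the nearest, at 177, 59 and 78 bp. None of these signals reached that of Cap-H2, but Cap-H2 was chosen on its top-ranked promoter peak, so this does not set it apart from these genes.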

How the data were processed

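CG9215-eGFP was precipitated with an anti-GFP antibody from sonicated chromatin of 200 to 800 bp in 2 libraries, per the labels. The authors deposited peak lists on dm6, per the text notes deposited with them. The sources used here do not name the aligner or peak caller. The deposited signal of a peak is the authors' value, with its scaling not stated. The deposited score is the authors' whole number of at most 1000 from the irreproducible discovery rate, and the ranked lists also hold its −log10 as deposited by the authors, at least 2 where the score is at least 830. All 3718 conservative peaks occur in 1 of the ranked lists of the series, at that score. In the other ranked list of the series 3297 of them reach it, so the larger thresholded list does not contain the whole conservative list. Read counts, and so depth, are unknown, and intervals were not computed. The control library was not analysed here.

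Genes and start sites came from Ensembl release 115 (BDGP 6.54), sequence from RefSeq Release 6, whose chromosome lengths contain every peak. Gene assignment passed over 37 conservative peaks, those on unplaced scaffolds. Peaks with a summit in a gene or 2000 bp on either side were listed with Python 3.11.15 and pandas 2.3.3, and the assignment was checked on planted peaks. Genes named are the members, genes with a start within 500 bp of a thresholded summit in their windows, the 2 protein-coding genes next above and below Cap-H2 by promoter signal with any gene sharing their peak, and up to 4 pathway genes per group. ChLD3, CG13326, Ack-like, CG10209, the nearest starts beside the pathway peaks and pathway genes without a peak were named after their values were seen. Members, lists and motifs were chosen with earlier results of these data known, and no test was run. The alternatives were other distances, start sites, overlaps, lists and windows.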

Additional observations from a re-analysis of the deposited data

How the results depend on the processing

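The 4 condensin genes with a promoter peak stayed 4 with start sites within 250 or 1000 bp and with RefSeq start sites. They also stayed 4 with the larger thresholded list of the series and with either library alone. A restriction to head-to-head genes, added after seeing the data, could not change the count, since all 4 are such genes. Among the conservative peaks above the list's median signal the count was 3, without Cap-D2. The count of genes with a peak in the window was 5 in all 6 of the alternatives that changed the flank, the overlap or the list, and 4 above the median signal. The number of peaks in the windows was between 5 and 7 across the alternatives, and 6 conservative peaks were found in both replicates also at 50% reciprocal overlap and with summits within 100 bp. The best rank was 3 without replicate 1 and 19 without replicate 2, and 9 otherwise, where the peak and its signal were the same ones. A count was called moved when it changed by over 1.5 times, which 2 results did. A rank was to be called moved when it changed by more than the SD of the replicates' ranks, 11.3. That SD comes from the same ranks of 3 and 19, so the rule could not judge the best rank, which differed between libraries. The pathway genes with a promoter peak numbered 4 above the median signal, against 7 in the whole list, since fewer peaks were searched, and between 5 and 7 elsewhere. Member peaks with CGATA numbered 5 with 100 bp to either side of the summit, 2 with 25 bp and 4 in the larger thresholded list, against 3. The wider window searches more bases, and CGATA was then in 28.7% of all conservative windows, against 19.1% of unselected ones. No paired analysis was possible because the design has 1 group and no test between groups. With 2 libraries and no read counts, the spread of a signal between libraries is known from a single pair of values.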
